A study of Mus musculus with 4 samples.

Results

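The colony-stimulating factors (CSFs) and their receptors were followed as 8 genes, chosen by symbol among the 27998 genes listed in every library. They comprised the ligands Csf1, Il34, Csf2 and Csf3 and the receptor chains Csf1r, Csf2ra, Csf2rb and Csf3r, and each symbol matched 1 row. Levels were read by single-cell RNA-seq in leukocytes of the nasal mucosa of 8-week-old C57BL/6 mice, isolated by CD45, the surface protein encoded by Ptprc. Of the 4 groups, with 1 library each, Vehicle and Ribavirin had no OVA, and Vehicle-OVA and Ribavirin-OVA had it. OVA stands for ovalbumin, an allergen used to induce allergic rhinitis, ribavirin is an antiviral drug that the series applied as a nasal spray, and vehicle was its control. The labels name magnetic beads for the CD45+ isolation and the series text names flow sorting, and the number of mice behind a library is not stated, so an effect of a group cannot be told apart from an effect of its library and no difference between groups was tested.

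CSFs are secreted proteins that drive the survival, growth and activation of myeloid cells. CSF1 and interleukin-34 share the receptor tyrosine kinase CSF1R, on which most tissue macrophages depend, whereas CSF2 (GM-CSF) signals through its own alpha chain and the common beta chain that it shares with interleukin-3 and interleukin-5, and CSF3 (G-CSF) signals through CSF3R, the main driver of neutrophil production. In the airway, CSF2 is best known as a product of lymphocytes and epithelium, and CSF3 as a product of epithelial, stromal and activated myeloid cells.

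By GENCODE M21 on GRCm38, all 8 members are protein-coding genes. The ligand Csf1 (ENSMUSG00000014599) lies at chr3:107741048-107760469 on the minus strand. Csf2 (ENSMUSG00000018916) and Csf3 (ENSMUSG00000038067) share chromosome 11, at chr11:54247271-54249667 on the minus strand and chr11:98701263-98703629 on the plus strand. Il34 (ENSMUSG00000031750) occupies chr8:110741829-110805924 on the minus strand. Among the receptors, Csf2ra (ENSMUSG00000059326) lies at chr19:61223957-61228429 on the minus strand, Csf2rb (ENSMUSG00000071713) at chr15:78325752-78353847 on the plus strand and Csf3r (ENSMUSG00000028859) at chr4:126024550-126044440 on the plus strand, and the remaining receptor is Csf1r (ENSMUSG00000024621). Csf2rb has an adjacent paralogue, Csf2rb2, which encodes the mouse beta chain specific to interleukin-3. Their transcripts shared 8.19% of the 90-base stretches of Csf2rb and 0% within the last 500 bases, the end that 3' libraries read. Only reads from the shared stretches further upstream could be assigned to either gene, and their number was not counted.

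Reference promoters were available for 4 members, and those of Csf2ra and Csf3r are shown because Csf2ra was the member whose pattern followed a myeloid transcription factor most closely (see the likeness values near the end) and Csf3r was the receptor most tied to neutrophils. Capitals mark GAGGAA, the core of sites bound by PU.1, which Spi1 encodes, searched on both strands. The Csf2ra sequence is the 250 bases before its RefSeq start (chr19:61228419-61228668, minus strand, GRCm38.p6), of which the last 11, with the second match, lie inside the GENCODE model, and the Csf3r sequence is a stretch of 30 bases (chr4:126024561-126024590, plus strand, also from RefSeq) inside the first exon of the GENCODE model.
Csf2ra: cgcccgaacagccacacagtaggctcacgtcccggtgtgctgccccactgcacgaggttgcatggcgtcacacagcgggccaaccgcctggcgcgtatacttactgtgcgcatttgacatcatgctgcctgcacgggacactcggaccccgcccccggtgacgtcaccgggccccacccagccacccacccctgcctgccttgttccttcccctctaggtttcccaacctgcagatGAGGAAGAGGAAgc
Csf3r: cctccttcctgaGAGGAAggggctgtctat
The 300-base window of Csf2ra held 2 matches, side by side without overlap, and that of Csf3r held 1, whereas the windows of Csf1 and Csf2 held 0. The same letters occurred in 28.3% of all 32851 windows, so a match describes the sequence only.

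The libraries held 91742940 to 171873110 UMIs each, and after filtering 8769 to 24321 cells per library remained (69758 in all), with a median of 3364 to 5088 UMIs. A Ptprc UMI was found in 86.0% to 90.4% of them. Clustering without the 8 members gave 43 clusters, of which all but 4 could be named by marker genes into 16 classes, written with "-like". Epithelial-like cells, which the CD45 isolation should leave out, numbered 173 to 790 per library. Between 57 and 174 cell barcodes were shared by each pair of libraries. Levels are counts per 1e+06 UMIs of the same cells (CPM), and all intervals are 95% intervals that cover counting error only (exact Poisson for levels, exact binomial for shares and for ratios of levels).

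Neutrophil-like cells numbered 3993 in Vehicle, 10367 in Vehicle-OVA, 4410 in Ribavirin and 1661 in Ribavirin-OVA, that is, 16.4%, 60.9%, 22.5% and 18.9% of the cells. A large cluster led by Siglecf carried some neutrophil genes, such as S100a8, S100a9, Cxcr2 and Il1r2, in most of its cells. Others were rare, with Ly6g in at most 0.637% and Mmp8 in at most 3.72% of the cells of a library. Of the eosinophil genes, Epx, Prg3 and Ear1 were at 0, but Siglecf was found in 54.0% to 70.7%. Only 1 marker of its best-scoring class was detected, below the minimum of 3, so the cluster was left unnamed. Another unnamed cluster was led by Ly6i. Some neutrophil-like clusters came almost wholly from 1 library: cluster 3 held 83.9%, cluster 11 held 97.1% and cluster 18 held 89.7% of its cells from Vehicle-OVA, and cluster 14 held 90.8% from Ribavirin.

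**Figure D1:**
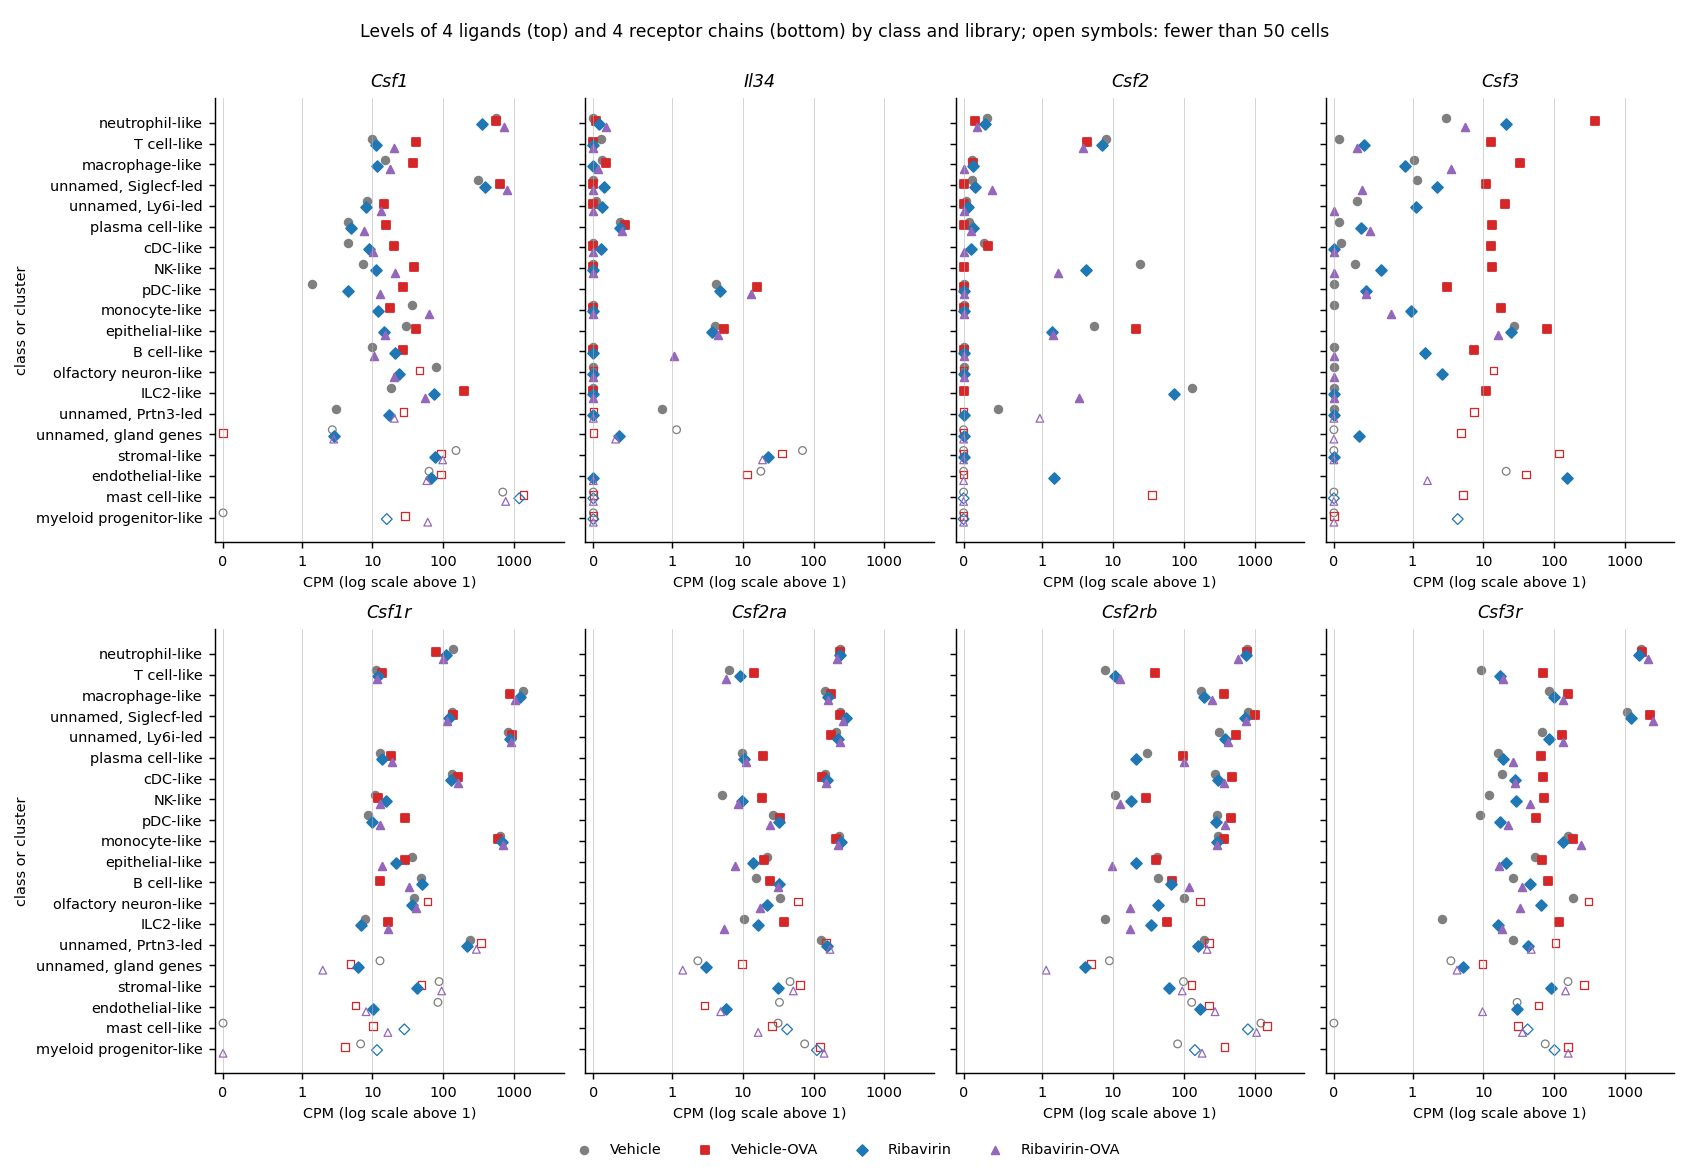
Level of each member (CPM, logarithmic axis with a linear stretch near 0) in every class or unnamed cluster, 1 panel per gene and 1 symbol per library; open symbols mark fewer than 50 cells. Csf1r peaked in macrophage-like cells (863 to 1347 CPM), Csf3r in neutrophil-like cells and the Siglecf-led cluster, and Csf2rb in the rare mast cell-like cells, while Csf3 was highest in Vehicle-OVA in most classes.

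Csf1 encodes the ligand that maintains macrophages, and its UMIs came mainly from granulocytic cells. In neutrophil-like cells its level was 558 CPM in Vehicle, 552 in Vehicle-OVA, 354 in Ribavirin and 725 in Ribavirin-OVA. In the Siglecf-led cluster the values were 311, 636, 385 and 795 CPM in the same order. These 2 groups held 67.6% and 18.4% of all Csf1 UMIs over the 4 libraries. The highest levels per cell, 693 to 1357 CPM, were in the mast cell-like cells, which numbered only 9 to 49 per library. The ranges of these 3 groups over the libraries overlapped, so their order is not resolved.

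The OVA contrast of Csf1 depended on the cells it was read in. Over all cells, Csf1 stood at 67.0 CPM in Vehicle and 238 in Vehicle-OVA, a ratio of 3.56 (3.48 to 3.65), and at 60.8 in Ribavirin and 98.0 in Ribavirin-OVA, a ratio of 1.61 (1.56 to 1.66). Within neutrophil-like cells the ratio was 0.990 (0.961 to 1.02) under vehicle and 2.05 (1.97 to 2.13) under ribavirin. In the vehicle pair the whole-sample difference thus moved with the number of neutrophil-like cells, which held 56.4% of the Csf1 UMIs of Vehicle and 84.1% of those of Vehicle-OVA, and fewer cells of a type and less RNA per cell cannot be told apart in the whole-sample value. In the Siglecf-led cluster, Csf1 was higher with OVA in both pairs, at a ratio of 2.04 (1.91 to 2.19) for the vehicle pair and 2.07 (1.95 to 2.19) for the ribavirin pair.

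Neutrophil-like clusters differed more in Csf1 than the libraries did. Within Vehicle-OVA, clusters of at least 50 cells ran from 46.9 to 912 CPM, while the class ran from 354 to 725 CPM over the libraries. Cluster 3 was high in every library (736, 889, 764 and 1464 CPM), and cluster 21 was low (56.7, 46.9, 50.2 and 48.2 CPM). The OVA ratio under vehicle was 1.21 in cluster 3, 0.575 in cluster 6, 1.37 in cluster 8 and 1.14 in cluster 9. Under ribavirin it was 1.92, 1.47, 2.49 and 2.20 in those clusters, so each was higher in Ribavirin-OVA than in Ribavirin, while cluster 6 alone among them was lower in Vehicle-OVA than in Vehicle.

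Outside these cells Csf1 was sparse. T cell-like cells gave 9.98, 41.8, 11.2 and 20.3 CPM, and within them the cluster led by Foxp3, the factor of regulatory T cells, gave 45.2, 89.0, 32.8 and 75.4 CPM. Monocyte-like cells gave 36.5, 17.6, 11.9 and 63.5 CPM, and in Ribavirin-OVA 6 cells held 58.0% of their 176 Csf1 UMIs. In ILC2-like cells (group 2 innate lymphoid cells) 1 cell held 81.3% of the 32 UMIs of Ribavirin. Neutrophil genes were read in these classes too, and the summed level of 9 neutrophil markers in T cell-like cells was 549.9 CPM in Vehicle, 1958 in Vehicle-OVA, 881 in Ribavirin and 394 in Ribavirin-OVA, with 9, 9, 9 and 8 of the 9 markers detected. The part of this background in Csf1 was not tested.

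Il34 encodes the second ligand of CSF1R and had the fewest UMIs of the 8 members over the libraries together. It gave 86 UMIs in Vehicle, 91 in Vehicle-OVA, 128 in Ribavirin and 117 in Ribavirin-OVA, or 0.573, 0.997, 0.824 and 1.39 CPM. The OVA ratio over all cells was 1.74 (1.28 to 2.37) under vehicle and 1.69 (1.30 to 2.19) under ribavirin. Most UMIs were in epithelial-like cells (22, 28, 79 and 66), in pDC-like cells, named for plasmacytoid dendritic cells (30, 36, 23 and 32), and in stromal-like cells (12, 16, 14 and 11). Per cell class, pDC-like cells were higher in both OVA libraries, at 4.14 and 15.7 CPM under vehicle (ratio 3.79, 2.27 to 6.36) and 4.71 and 13.1 CPM under ribavirin (ratio 2.77, 1.57 to 4.96). Epithelial-like cells changed little, at 4.00, 5.48, 3.71 and 4.51 CPM, with ratios of 1.37 (0.756 to 2.51) and 1.22 (0.863 to 1.71) whose intervals held 1. Monocyte-, NK-, ILC2- and mast cell-like cells held 0 Il34 UMIs in all libraries, which allows up to 1.23 CPM in monocyte-like, 2.00 in NK-like, 7.77 in ILC2-like and 94.5 in the few mast cell-like cells at a limit of 3 counts.

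Csf2 encodes GM-CSF, and its UMIs were few and lay mainly in lymphoid cells, except in Vehicle-OVA, where epithelial-like cells held 108 of 156. All cells together held 430 UMIs in Vehicle, 156 in Vehicle-OVA, 250 in Ribavirin and 72 in Ribavirin-OVA, in 236, 38, 160 and 52 cells. The level was 2.86, 1.71, 1.61 and 0.857 CPM, lower with OVA by a ratio of 0.597 (0.494 to 0.719) under vehicle and 0.532 (0.404 to 0.694) under ribavirin. The vehicle ratio leaned on single cells, since 1 epithelial-like cell held 57 of the 156 UMIs of Vehicle-OVA and 1 NK-like cell 55 of the 430 of Vehicle. Without the cell with the most Csf2 UMIs in each library, an alternative chosen after the data had been seen, the ratios were 0.435 (0.345 to 0.544) and 0.520 (0.391 to 0.685). Csf2 was also lower with OVA in both pairs in T cell-like cells, with 8.02, 4.29, 6.91 and 3.75 CPM and ratios of 0.535 (0.358 to 0.775) and 0.543 (0.371 to 0.776). Within T cell-like cells the cluster led by Il17a, a cytokine gene of type 17 lymphocytes, gave 14.5, 8.57, 11.9 and 7.86 CPM.

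Csf2 also differed in ILC2-like cells, which numbered 102, 89, 92 and 178. Their level was 129.5 CPM in Vehicle (50 UMIs), 0 in Vehicle-OVA, 71.9 in Ribavirin (31 UMIs) and 3.27 in Ribavirin-OVA (6 UMIs). A Csf2 UMI was found in 17.6%, 0%, 11.96% and 1.69% of these cells, and the 0 of Vehicle-OVA allows up to 4.14 CPM. The ribavirin ratio was 0.0455 (0.0155 to 0.111). In the same class Il5, another cytokine gene of type 2 lymphocytes, was higher in both OVA libraries (62.2 and 120.0 CPM under vehicle, 129.9 and 313 under ribavirin). Markers of other cells moved in this small class as well. The summed level of its T cell markers, of which 7 of 9 were listed and 6 or 7 detected per library, was 368, 2058, 339 and 1960.2 CPM, against 2588 to 3698 in T cell-like cells. The summed 9 neutrophil markers, of which 6 to 9 were detected, stood at 363, 4564, 656 and 816 CPM. The summed 6 basophil markers, of which 2 to 6 were detected, stood at 36.3, 334, 137 and 466 CPM. The part of such a change of cells in the Csf2 and Il5 values was not tested.

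Other Csf2 values rested on single cells. NK-like cells held 92 UMIs in Vehicle, but 1 cell carried 59.8% of them, and 0, 14 and 3 in the other libraries, where the 0 of Vehicle-OVA allows up to 2.00 CPM. Epithelial-like cells held 30, 108, 29 and 21 UMIs, and 1 cell carried 57 of the 108 in Vehicle-OVA. B cell-, monocyte-, pDC- and stromal-like cells had 0 Csf2 UMIs in every library, which allows up to 3.19, 1.23, 1.31 and 17.4 CPM.

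**Figure D2:**
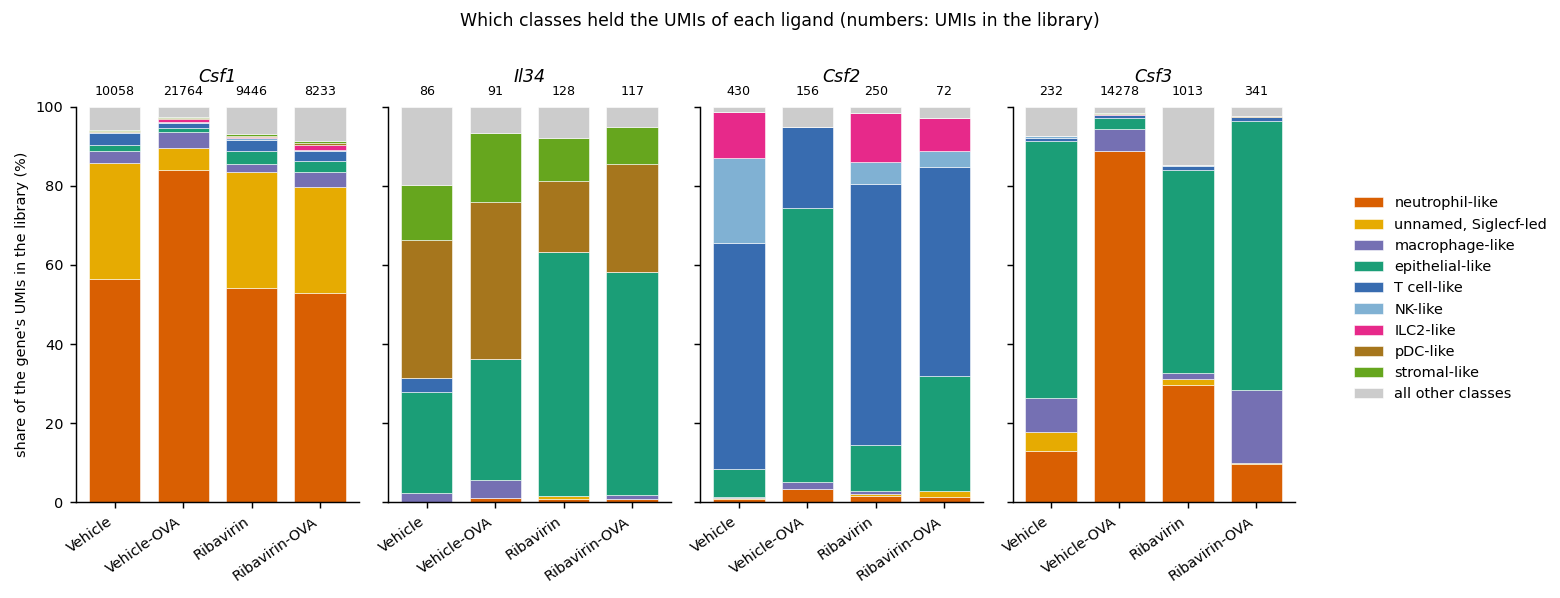
Share of each ligand's UMIs (percent, stacked bars) by class in each library, with the total UMIs of the ligand printed on top. Neutrophil-like cells held 88.8% of the Csf3 UMIs of Vehicle-OVA but 12.9%, 29.5% and 9.7% in Vehicle, Ribavirin and Ribavirin-OVA, where epithelial-like cells held most of the rest.

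Csf3 encodes G-CSF and was the member that differed most between libraries. All cells held 232 Csf3 UMIs in Vehicle, 14278 in Vehicle-OVA, 1013 in Ribavirin and 341 in Ribavirin-OVA. Neutrophil-like cells gave 2.95, 382, 20.7 and 5.48 CPM (30, 12678, 299 and 33 UMIs), so that Vehicle-OVA stood alone. The OVA ratio in these cells was 129.5 (90.7 to 192) under vehicle and 0.265 (0.179 to 0.381) under ribavirin, that is, opposite in direction. Ribavirin was higher than Vehicle without OVA, by 7.00-fold (4.80 to 10.6), and far lower with OVA, at a ratio of 0.0143 (0.00987 to 0.0202).

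The high Csf3 of Vehicle-OVA was uneven among its neutrophil-like cells. A Csf3 UMI was found in 18.6% of them (1932 cells), and 436 cells with 10 or more UMIs held 65.0% of the UMIs. Cluster 11 gave 807 CPM and 56.7% of the UMIs, but Csf3 was among its leading genes next to Serpinb2 and Cxcl3, and nearly all of the cluster came from this library, so its level describes the cluster. Cluster 18 gave 399 CPM and cluster 3 gave 322, whereas clusters 6, 8, 9 and 21 gave 20.8 to 39.3 CPM. In these 4 clusters, which all libraries shared, Vehicle held 0.513 to 6.30 CPM. Classes not known for CSF3 gave, in Vehicle-OVA, 13.3 CPM in plasma cell-like and in NK-like cells and 12.9 in cDC-like cells, so the lower end of these clusters was near that background. Without the clusters that came over 80% from 1 library, the log2 ratio was 3.57 in place of 7.02 under vehicle and -0.97 in place of -1.91 under ribavirin. The latter rested on few UMIs, with 12, 7, 14 and 1 in clusters 6, 8, 9 and 21 of Ribavirin and 5, 3, 1 and 0 in Ribavirin-OVA. Cluster 6 was higher with OVA there, at 3.49 and 4.43 CPM, and clusters 8, 9 and 21 were lower.

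In Ribavirin, 183 of the 299 neutrophil-like Csf3 UMIs (61.2%) lay in cluster 14, itself 90.8% from that library. Cluster 3 gave 107 CPM there (56 UMIs in 184 cells), against 0 UMIs in 185 cells of Vehicle (up to 7.03 CPM at 3 counts) and 15.5 CPM (16 UMIs in 419 cells) in Ribavirin-OVA. Cells of cluster 3 thus held Csf3 in the 3 libraries other than Vehicle, with Vehicle-OVA highest.

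**Figure D3:**
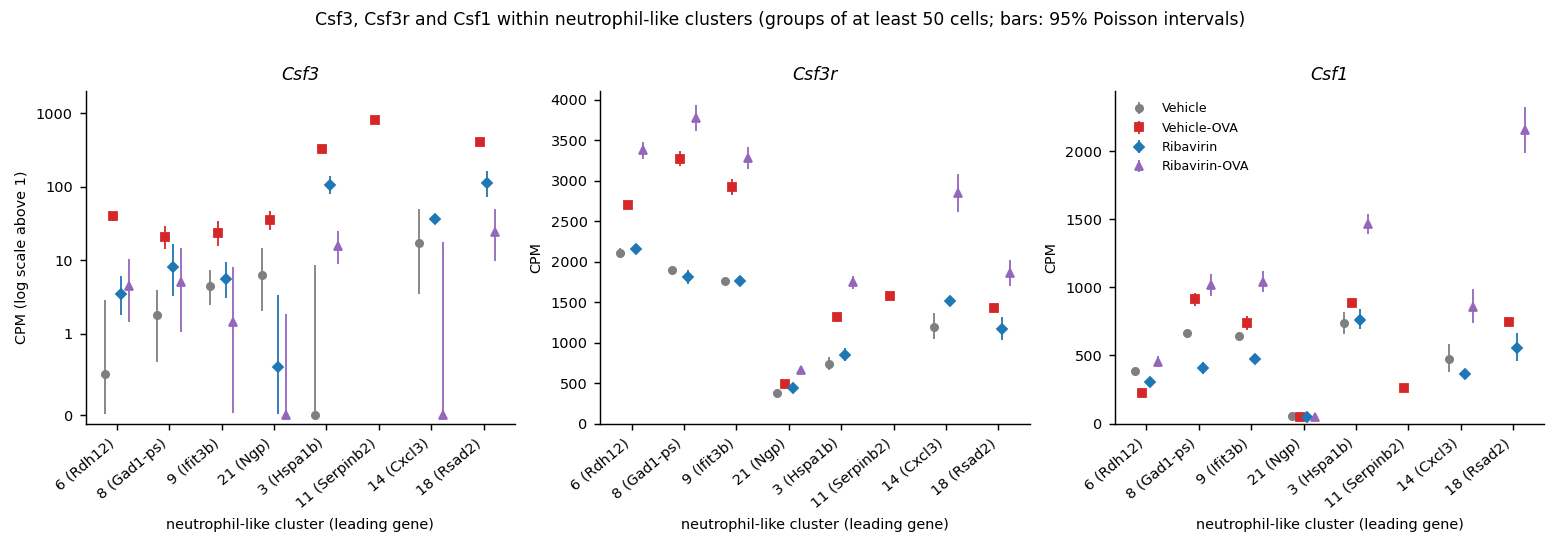
Level (CPM, logarithmic axis where labelled) of Csf3, Csf3r and Csf1 in the 8 neutrophil-like clusters, by library, where a cluster held at least 50 cells of the library; bars are 95% counting intervals. Csf3 ran from 20.8 to 807 CPM across clusters of Vehicle-OVA, and Csf3r was higher in the OVA library in each cluster that both libraries of a pair shared.

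Epithelial-like cells, a known source of G-CSF, gave 27.5 CPM of Csf3 in Vehicle, 78.1 in Vehicle-OVA, 24.5 in Ribavirin and 15.9 in Ribavirin-OVA. The ratio with OVA was 2.84 (2.35 to 3.45) under vehicle and 0.647 (0.552 to 0.756) under ribavirin. Its clusters differed, with 4.78 (3.18 to 7.44) and 0.240 (0.164 to 0.344) in cluster 23 and a ribavirin ratio of 0.904 (0.695 to 1.18) in cluster 32. Macrophage-like cells gave 1.06, 32.8, 0.910 and 3.49 CPM, and 14 cells held 43.4% of their UMIs in Vehicle-OVA. In the Siglecf-led cluster Csf3 was low throughout, at 1.15, 10.8, 2.23 and 0.360 CPM (11, 20, 16 and 1 UMIs).

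Free RNA from broken cells enters droplets of every class, and its part in the Csf3 of the other classes was not tested. As a description, Csf3 was read per 100 Csf3r UMIs in Vehicle-OVA. Neutrophil-like cells held 22.0 (21.5 to 22.4), macrophage-like cells 20.9 (19.3 to 22.6), T cell-like cells 18.6 (14.8 to 23.2) and cDC-like cells 18.7 (13.1 to 26.0). Monocyte-like cells were lower, at 9.69 (6.94 to 13.2), as were pDC-like cells at 5.56 (2.19 to 11.8). B cell-like cells gave 8.89 (3.72 to 18.3) and ILC2-like cells 9.30 (3.89 to 19.2), from 8 UMIs each. Epithelial-like cells held 115 (99.6 to 134) and the Siglecf-led cluster 0.476 (0.290 to 0.735), so the value was not one and the same across classes. After thinning each cell to 1000 UMIs, a Csf3 UMI was found in 0.155%, 12.6%, 1.36% and 0.705% of neutrophil-like cells and, as the background in cells not known for CSF3, in 0.0167%, 0.806%, 0.0750% and 0.0597% of T cell-like cells. Without thinning these shares became 0.351%, 18.6%, 2.70% and 0.903% against 0.0328%, 5.33%, 0.225% and 0.175%, at median depths of 2056 to 2974 UMIs in neutrophil-like and 4076 to 5058 in T cell-like cells.

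**Figure D4:**
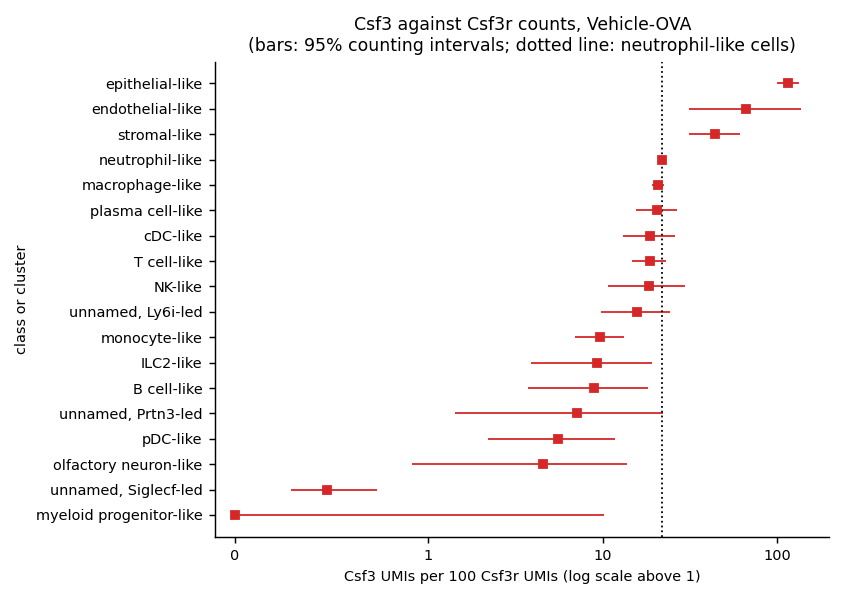
Csf3 UMIs per 100 Csf3r UMIs (logarithmic axis with a linear stretch near 0) by class in Vehicle-OVA, with 95% counting intervals. Neutrophil-, macrophage-, cDC- and T cell-like cells lie between 18.6 and 22.0, monocyte-like cells at 9.69, epithelial-like cells at 115 and the Siglecf-led cluster at 0.476.

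Turning to the receptors, Csf1r encodes the receptor of CSF1 and interleukin-34 and followed the mononuclear phagocytes. Macrophage-like cells held 55.8% of its UMIs over the 4 libraries and the Ly6i-led cluster 26.6%. The level in macrophage-like cells was 1347 CPM in Vehicle, 863 in Vehicle-OVA, 1217 in Ribavirin and 1030.4 in Ribavirin-OVA, lower with OVA at a ratio of 0.641 (0.629 to 0.653) under vehicle and 0.847 (0.830 to 0.864) under ribavirin. Both OVA libraries lay below both libraries without OVA. However, different clusters made up the class: cluster 5, led by Ccl24 and Arg1, held 90.9% of it in Vehicle-OVA and 87.5% in Ribavirin-OVA, while cluster 7, led by Fcrls, held 79.0% in Vehicle and 84.4% in Ribavirin. The log2 ratio ran from -0.92 to -0.20 under vehicle and from -0.57 to 0.00 under ribavirin over the processing alternatives.

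Within those clusters the Csf1r difference was small or turned. The vehicle ratio was 0.873 in cluster 5 and 0.957 in cluster 7, and the ribavirin ratio was 1.11 and 1.23. In cluster 7 the levels were 1280.3 CPM in Vehicle, 1225 in Vehicle-OVA, 1187 in Ribavirin and 1459.8 in Ribavirin-OVA. The highest cluster, led by Crybb1 and Sall1, gave 2607 CPM. The Ly6i-led cluster held a steady 825 to 934 CPM and monocyte-like cells 585 to 695 CPM. Neutrophil-like cells held 139, 79.9, 108 and 97.5 CPM.

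Csf2ra encodes the alpha chain that gives the GM-CSF receptor its ligand specificity, and its level was similar in most myeloid groups. Neutrophil-like cells gave 237, 237, 239 and 213 CPM, and the Siglecf-led cluster gave 238, 237, 287 and 265. Monocyte-like cells gave 228, 206, 242 and 224 CPM, and the Ly6i-led cluster 208, 179, 222 and 236. These 4 groups overlapped in range, so their order is not resolved. Macrophage-like cells were lower, at 144, 175, 162 and 159.6 CPM, and cDC-like cells (conventional dendritic cells) gave 146, 131, 156 and 152. The OVA ratio in neutrophil-like cells was 1.00 (0.958 to 1.05) under vehicle and 0.893 (0.837 to 0.952) under ribavirin. In macrophage-like cells it was 1.22 (1.16 to 1.28) and 0.984 (0.934 to 1.04), but within cluster 5 it was 0.743 (0.618 to 0.901) under vehicle and within cluster 7 0.724 (0.628 to 0.831) under ribavirin. The other pair differed less in each cluster. Cluster 5 gave 198 CPM in Ribavirin and 167 in Ribavirin-OVA, and cluster 7 gave 148 in Vehicle and 139 in Vehicle-OVA. T cell-like cells held 6.29, 14.5, 9.05 and 5.82 CPM, in the same order as the summed neutrophil markers of these cells, whose part in it was not tested.

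Csf2rb encodes the signalling chain shared with interleukin-3 and interleukin-5. Mast cell-like cells were highest, at 1228, 1495, 803 and 1064 CPM, followed by the Siglecf-led cluster (815, 1025, 739 and 749) and neutrophil-like cells (790.5, 785, 757 and 584), with overlapping ranges. In neutrophil-like cells the OVA ratio was 0.994 (0.969 to 1.02) under vehicle and 0.771 (0.742 to 0.801) under ribavirin. Antigen-presenting cells held less. Macrophage-like cells gave 174 and 365 CPM under vehicle, a ratio of 2.09 (2.01 to 2.18), and 191 and 251 CPM under ribavirin, a ratio of 1.32 (1.26 to 1.38), but cluster 7 made up most of the class without OVA and cluster 5 most of it with OVA. Within cluster 5 the ratios were 0.921 (0.801 to 1.06) and 0.565 (0.509 to 0.629), and within cluster 7 they were 0.994 (0.872 to 1.13) and 0.978 (0.870 to 1.10), so the higher class value was not found inside its clusters. The cDC-like cells were higher with OVA in both pairs, at ratios of 1.77 (1.67 to 1.89) and 1.23 (1.15 to 1.31), which held in their clusters 10 (1.84 and 1.16) and 26 (1.41 and 1.46), and the pDC-like cells 1.54 (1.43 to 1.66) and 1.35 (1.24 to 1.47).

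Among lymphoid cells, plasma cell-like cells held 30.5, 95.9, 21.2 and 100.1 CPM of Csf2rb, with OVA ratios of 3.15 (2.76 to 3.59) and 4.72 (4.03 to 5.54). Different clusters made up this class too: cluster 16 held 1089 cells of Vehicle and 535 of Ribavirin but 3 and 1 of the OVA libraries, while cluster 22 held 66, 262, 10 and 369. Within cluster 22, Csf2rb stood at 115 CPM in Vehicle (22 UMIs in 66 cells) and 95.5 in Vehicle-OVA, a ratio of 0.829 (0.539 to 1.34). In Ribavirin-OVA it stood at 88.7 CPM. Those 66 cells also held Csf3r at 173 CPM, against 67.1 in cluster 22 of Vehicle-OVA. The part of the makeup in the class value was not tested. Cluster 25, led by cell cycle genes such as Ccna2, gave 29.3 CPM in Vehicle (163 cells), 16.4 in Ribavirin (82 cells) and 113 in Ribavirin-OVA (164 cells), a ribavirin ratio of 6.90 (4.72 to 10.5). The plasma cell-like class as a whole held 23 of the 38, 98 of the 130, 2 of the 21 and 287 of the 315 UMIs of Il5ra. This gene encodes the alpha chain of the interleukin-5 receptor. Its level in the class was 1.58, 19.5, 0.229 and 26.2 CPM. Il5ra was among the leading genes of cluster 22, so its level in that cluster describes the cluster. The neighbouring Csf2rb2 gave 298, 411, 321 and 329 CPM in pDC-like cells. In macrophage-like cells it gave 59.1, 144, 62.7 and 92.9 CPM, with ratios of 0.972 and 0.547 within cluster 5. Il3 had 0 UMIs in all cells.

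Csf3r encodes the G-CSF receptor and was read mainly in neutrophil-like cells (67.9% of its UMIs over the 4 libraries) and the Siglecf-led cluster (18.4%). Neutrophil-like cells gave 1700.3 CPM in Vehicle, 1741 in Vehicle-OVA, 1577 in Ribavirin and 2127 in Ribavirin-OVA, with OVA ratios of 1.02 (1.01 to 1.04) and 1.35 (1.32 to 1.38). The Siglecf-led cluster gave 1065, 2268, 1207 and 2511 CPM, with ratios of 2.13 (2.05 to 2.21) and 2.08 (2.01 to 2.15), so both OVA libraries lay far above both others. The neutrophil-like ratio under vehicle was small and depended on the processing, from -0.07 to 0.51 on the log2 scale, and that under ribavirin ran from 0.01 to 0.73. The median of all genes read in these cells was itself at -0.35 under vehicle and 0.39 under ribavirin on log2 of (CPM + 1). The Csf3r ratio of 1.35 under ribavirin was thus close to that of the median gene.

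Within single neutrophil-like clusters, Csf3r was higher with OVA in each cluster that could be compared. The vehicle ratio ran from 1.28 in cluster 6 to 1.79 in cluster 3 over clusters 3, 6, 8, 9 and 21, and the ribavirin ratio from 1.51 to 2.08 over the same clusters plus 14 and 18. In cluster 8 the levels were 1892 CPM in Vehicle, 3271 in Vehicle-OVA, 1809 in Ribavirin and 3768 in Ribavirin-OVA. The near-equal class values under vehicle came with a different makeup: clusters 3, 11 and 18 made up 39.6%, 20.7% and 13.98% of the neutrophil-like cells of Vehicle-OVA, and there they gave only 1319, 1572 and 1427 CPM.

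Lower down, macrophage-like cells gave 85.1, 157, 99.7 and 136 CPM of Csf3r, and monocyte-like cells gave 158, 186, 136 and 239. T cell-like cells gave 9.29, 69.9, 17.3 and 18.7 CPM, with a ratio of 7.52 (6.49 to 8.72) under vehicle. The summed neutrophil markers of macrophage-like cells moved the same way under vehicle, at 617 CPM in Vehicle and 2306 in Vehicle-OVA, while under ribavirin they stood at 916 and 605, and their part in the Csf3r values was not tested.

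Csf3 and its receptor were next read in the same neutrophil-like cells. After thinning to 1000 UMIs (3867, 9814, 4410 and 1561 cells), a Csf3r UMI was found in 64.9% (62.2 to 67.6) of the 1239 cells with a Csf3 UMI in Vehicle-OVA, and in 74.3% (73.4 to 75.3) of the cells without one. In Ribavirin the shares were 63.3% (38 of 60 cells, 49.9 to 75.4) and 75.5%. Vehicle and Ribavirin-OVA held only 6 and 11 cells with a Csf3 UMI, of which 5 and 8 had Csf3r. Most Csf3-positive neutrophil-like cells thus carried the receptor transcript, at a lower share than the others in the libraries with enough cells. In Vehicle-OVA, clusters 3, 11 and 18 held 25.0%, 56.7% and 15.8% of the Csf3 UMIs and gave 1319, 1572 and 1427 CPM of Csf3r. Clusters 6, 8, 9 and 21 gave 2695, 3271, 2923 and 485 CPM there. The part of this cluster mix in the lower share was not tested. Thinning to 2000 UMIs narrowed the gap in Vehicle-OVA to 86.3% against 90.8%, and without thinning it turned, at 91.2% against 88.1%.

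Other members were also found together. Among neutrophil-like cells with Csf3r, a Csf2rb UMI was present in 52.2%, 48.9%, 51.5% and 41.4%, against 44.2%, 42.7%, 44.2% and 30.4% of those without Csf3r. Cells with the ligand Csf1 had Csf3r in 76.7%, 74.1%, 73.4% and 84.4%, against 78.7%, 72.7%, 76.0% and 75.2% of those without Csf1, a higher share in Ribavirin-OVA and nearly equal shares elsewhere. In macrophage-like cells, Csf2rb was found in 14.03%, 29.0%, 16.7% and 22.5% of cells with Csf1r and in 15.8%, 26.2%, 16.6% and 17.0% of those without, so the 2 receptors were neither split between cells nor tightly joined.

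**Figure D5:**
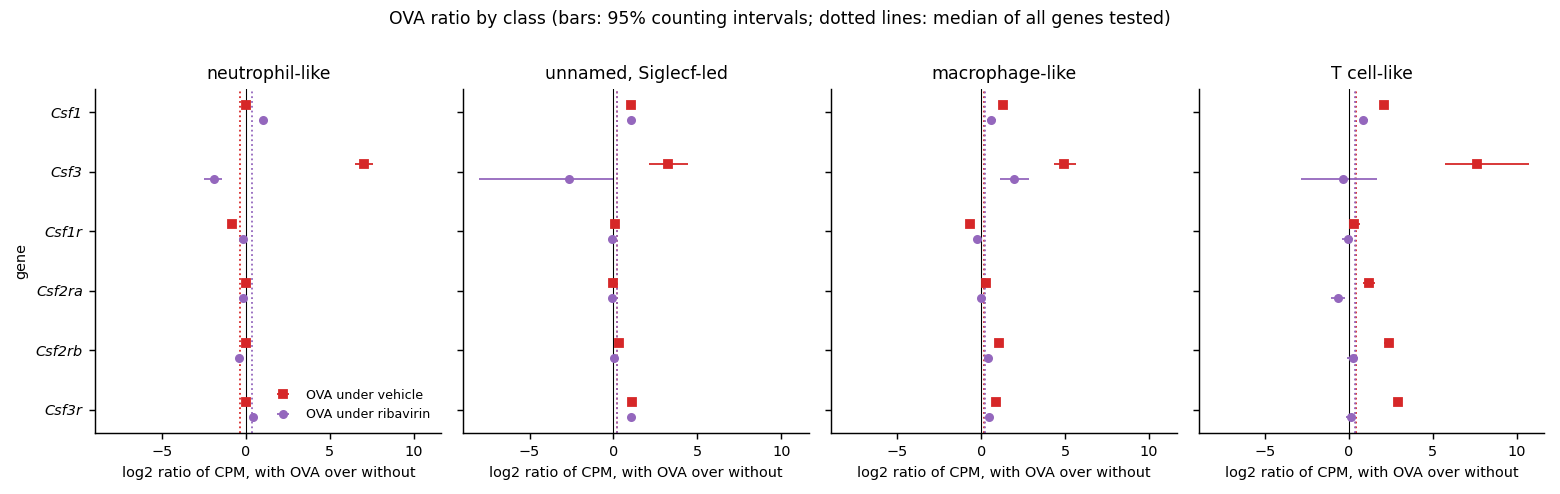
OVA over no OVA (log2 ratio of CPM, with 95% counting intervals) for 6 members in the vehicle and the ribavirin pair, in neutrophil-like cells, the Siglecf-led cluster, macrophage-like and T cell-like cells; dotted lines mark the median of all genes. Csf3 in neutrophil-like cells lies at 7.02 under vehicle and -1.91 under ribavirin, whereas Csf3r in the Siglecf-led cluster lies above 1 in both.

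The members were then set against all genes with at least 50 UMIs in a pair, on log2 of (CPM + 1). The median gene was itself shifted, in neutrophil-like cells by -0.35 in the vehicle pair and 0.39 in the ribavirin pair, by 0.17 and 0.22 in macrophage-like cells and by 0.40 and 0.39 in T cell-like cells. In neutrophil-like cells under vehicle, 1 of 6 members (Csf3) was over 2-fold higher and 0 lower, against 6.75% higher and 16.3% lower of 9380 genes. Under ribavirin 1 of 6 was higher (Csf1) and 1 lower (Csf3), against 13.6% and 2.38% of 8554 genes.

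In macrophage-like cells under vehicle, 3 of 6 members (Csf1, Csf3 and Csf2rb) were over 2-fold higher, against 10.6% higher and 5.8% lower of 11113 genes, and under ribavirin 1 of 6 (Csf3), against 8.1% and 3.98% of 10955. These class values carry the exchange of cluster 7 for cluster 5. Within clusters 5 and 7 the vehicle ratio of Csf1 was 0.377 (0.282 to 0.516) and 1.28 (0.752 to 2.07), that of Csf2rb was close to 1 as given above, and that of Csf3 was 17.0 (3.04 to 671, from 1 UMI in Vehicle) and 9.26 (4.45 to 19.0). Cluster 5 gave 7.32 CPM of Csf3 in Ribavirin (6 UMIs) and 4.04 in Ribavirin-OVA (63 UMIs). Cluster 7 gave 0.412 CPM (6 UMIs) and 0 (up to 1.59 CPM at 3 counts). The higher Csf3 of the class under ribavirin was thus not found inside these clusters. In T cell-like cells under vehicle, 5 of 7 (Csf1, Csf3, Csf2ra, Csf2rb and Csf3r) were higher, against 13.4% higher and 3.38% lower of 11021 genes, and under ribavirin 0 of 6, against 9.85% and 3.13% of 11069. Those 5 members are genes of neutrophil-like cells, and the neutrophil markers summed in T cell-like cells stood at 549.9 and 1958 CPM in that pair. Their part in these 5 values was not tested.

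Genes around the CSFs were read from 5 lists. Of 19 signalling and feedback genes, 3 were over 2-fold higher and 2 lower in neutrophil-like cells under vehicle, and 3 higher and 1 lower under ribavirin. Beside the shares of all genes (6.75% and 16.3%, then 13.6% and 2.38%), the 3 higher genes under ribavirin were near the background. Cish, a feedback inhibitor induced by STAT5, was higher in both pairs (36.4 and 270.3 CPM, then 50.6 and 110.2), as was Stat5a, which encodes a transcription factor activated by CSF receptors (7.87 and 16.8, then 5.46 and 15.6). Tyrobp, which encodes an adaptor of myeloid receptors, was lower in both (5361 and 1581, then 4373 and 1925). These are class values, and the clusters behind them differed. Cluster 3 was 4.63% of the neutrophil-like cells of Vehicle and 39.6% of those of Vehicle-OVA. Cluster 14 was 38.2% of those of Ribavirin and 5.30% of those of Ribavirin-OVA. The part of this makeup in Cish, Stat5a and Tyrobp was not tested. The list's median log2 ratio was 0.26 under vehicle and 0.27 under ribavirin, above the median of all genes in the first pair and below it in the second.

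In macrophage-like cells 5 of the 19 were higher and 1 lower under vehicle, and 4 higher and 1 lower under ribavirin, beside 10.6% and 5.8%, then 8.1% and 3.98%, of all genes. Socs2, a STAT5-induced feedback inhibitor, went from 8.77 to 106 CPM and from 10.9 to 88.9 CPM. Jak2, the kinase bound to the common beta chain, went from 38.7 to 182 and from 47.3 to 148 CPM, and Cish from 12.3 to 58.1 and from 11.6 to 44.4 CPM. As class values, Stat5a was again higher and Tyrobp lower in both pairs. Within clusters 5 and 7, in that order, the Stat5a ratio was 5.53 (1.52 to 45.8, from 2 UMIs in Vehicle) and 1.69 (1.04 to 2.63) under vehicle. Under ribavirin it was 1.47 (0.828 to 2.86) and 1.10 (0.623 to 1.84), whose intervals held 1. The Tyrobp ratio was 0.467 and 0.559 under vehicle and 0.480 and 0.599 under ribavirin. The ratios of Socs2, Jak2 and Cish, too, carry the exchange of clusters and were smaller within them: in cluster 5 the ratios were 3.30 and 2.02 for Socs2, 1.99 and 1.24 for Jak2, and 2.34 (1.36 to 4.40) and 1.44 (0.983 to 2.20) for Cish. In cluster 7 they were 1.82 and 3.22 for Socs2, 1.97 and 1.83 for Jak2, and 0.947 (0.551 to 1.53) and 2.74 (1.98 to 3.74) for Cish. In T cell-like cells 9 were higher under vehicle, and 2 higher and 1 lower under ribavirin, beside 13.4% and 3.38%, then 9.85% and 3.13%, of all genes, with Cish (148 and 347, then 163 and 348 CPM) and the kinase gene Pim1 (316 and 925, then 366 and 737 CPM) higher in both.

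The other 4 lists were shorter. Of 11 myeloid lineage factors in neutrophil-like cells, 1 was higher and 2 lower under vehicle, and 2 higher under ribavirin, all near the shares of all genes given above. Gfi1, a repressor needed for granulocyte formation, was higher in both (0.787 and 3.77 CPM, then 2.42 and 9.47), whereas Spi1 gave 730.4 and 338 CPM under vehicle and 555 and 450.5 under ribavirin. Of 8 genes for inducers of CSFs, 7 could be read there. Under vehicle 3 were higher (Il1a, Il23a and Nfkb1) and 1 lower (Il17a), beside 6.75% and 16.3% of all genes. Under ribavirin 0 passed either way, beside 13.6% and 2.38%. Of the common beta family, Il3ra was higher in neutrophil-like cells under vehicle, and of the other growth factors Kit, the stem cell factor receptor, was higher in both pairs (3.84 and 14.4 CPM, then 4.56 and 11.5). The part of the differing clusters of neutrophil-like cells in these values was not tested either. In macrophage-like cells these lists gave, under vehicle, 3 of 11 lineage factors, 2 of 7 inducers and 1 of 2 readable common beta genes higher. There 1 inducer and 1 growth factor were lower, again with the exchange of clusters. Of all genes, 10.6% were higher and 5.8% lower in that pair, and the lists are short. Under ribavirin 1 lineage factor and 1 common beta gene were higher there, beside 8.1% higher and 3.98% lower of all genes. In T cell-like cells the paralogue Csf2rb2 and Gfi1 were higher in both pairs. Markers of other cells were higher there with OVA too. The 6 mast cell markers, of which 2 to 5 were detected, together rose from 0.293 to 146 CPM under vehicle. Under ribavirin they rose from 0.335 to 222 CPM. The summed 6 basophil markers, of which 2 to 6 were detected, rose from 1.60 to 23.5 and from 0.168 to 58.3 CPM. The part of such cells in the Csf2rb2, Gfi1, Cish and Pim1 values of this class was not tested.

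Finally, the genes with the most similar pattern were ranked for each member by Pearson's r of log2(CPM + 1) over 60 combinations of class and library, among 13132 genes. These points share libraries, so r is only a description. Csf2ra was most like Spi1 (0.969), Pirb (0.955) and Plbd1 (0.947), and Csf3r was most like Trem1 (0.962), Cd300ld (0.955) and Clec4e (0.934). Csf1r followed Clec4a3 (0.958), Clec4a2 (0.957) and Fcgr1 (0.944), and Csf2rb followed Skap2 (0.939), Ogfrl1 (0.927) and Fgr (0.920). The receptors thus had close companions among myeloid genes. The ligands had looser ones, with Hdc (0.921), Il1rap (0.883) and H2-Q10 (0.866) for Csf1, Ccl1 (0.775) for Csf2 and Lcn2 (0.759) for Csf3, and Il34 was too sparse to rank.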

How the data were processed

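The values deposited by the authors are raw UMI counts of genes in called cell barcodes, 1 matrix per library. The submitters' processing notes name Cell Ranger 5.0.0 and mm10, and the annotation is not given in the sources used here. Cells were kept from 200 genes and 500 UMIs upwards and up to 10% mitochondrial UMIs. A Scrublet-like procedure, with its limit (score over 0.25) set after the scores were seen, marked 5.47%, 2.63%, 3.19% and 0.544% of the cells of Vehicle, Vehicle-OVA, Ribavirin and Ribavirin-OVA as doublets, against expected rates of 11.3%, 7.66%, 8.56% and 4.12%, so doublets remain. Marked cells were removed. The 4 libraries were clustered together on 2000 variable genes without the members, 30 principal components, 15 neighbours and Leiden partitioning (resolution 1.0), without correcting for library. Names came from marker lists with a scoring rule set after an earlier clustering had been seen.

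UMIs were summed per class and library. With 1 library per group no test was made, and samples were not replicated. A gene was read in a pair at 50 or more UMIs, and over 2-fold on log2(CPM + 1) was counted as higher or lower. All 8 members were named, with list genes over 2-fold the same way in both OVA pairs or needed for a member's result. Most alike genes needed 500 UMIs. The members, lists and markers were chosen with earlier results of these data known. Scripts were tested on simulated data. Python 3.11.15, NumPy 2.4.6, SciPy 1.17.1, pandas 2.3.3, igraph 0.11.9, scikit-learn 1.9.0 and matplotlib 3.10.9 were used.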

Additional observations from a re-analysis of the deposited data

Results flagged for a closer look

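Several OVA ratios of a member lay above 1 under one treatment and below 1 under the other, with both counting intervals clear of 1. In each case the difference between the treatments was not tested, since each ratio compares 2 libraries. Csf3 gave 101 under vehicle and 0.622 under ribavirin over all cells, 129.5 and 0.265 in neutrophil-like cells, and 2.84 and 0.647 in epithelial-like cells. Csf1 in monocyte-like cells gave 0.483 and 5.34, the latter resting on 6 cells for 58.0% of the Ribavirin-OVA UMIs. Csf2ra gave 1.42 and 0.773 over all cells, while T cell-like cells gave 2.30 and 0.644. Csf2rb gave 1.97 and 0.857 over all cells, and in ILC2-like cells 7.45 and 0.502, where Vehicle held 3 UMIs and the summed T cell markers (368, 2058, 339 and 1960.2 CPM) and neutrophil markers (363, 4564, 656 and 816 CPM) moved too, with their part not tested. Csf3r in epithelial-like cells gave 1.27 and 0.803, but 2.55 and 1.12 within their cluster 23. The share of neutrophil-like cells, at 60.9% in Vehicle-OVA against 16.4% to 22.5% in the other libraries, moved with the whole-sample values, and its part in them was not tested.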

How the results depend on the processing

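Of 102 OVA log2 ratios recomputed under an alternative, 45 stayed within their counting interval, 55 moved beyond it and 2 turned in direction. Shares of cells and counts of list genes were also recomputed but are not among the 102. A count was taken as unchanged within 1.5 times. The alternatives for clusters from 1 library, the Siglecf-led cluster, the Ly6i-led cluster and the cells with the most Csf2 UMIs were added after the data had been seen, and the cause of each move was not tested. Values below are log2 ratios of OVA over no OVA, except the shares and gene counts at the end. Without clusters that came over 80% from 1 library, Csf3 in neutrophil-like cells gave 3.57 under vehicle (7.02 as reported) and -0.97 under ribavirin (-1.91). Its sign was the same in every alternative run. However, the -0.97 rested on few UMIs. The remaining clusters 6, 8, 9 and 21 held 12, 7, 14 and 1 in Ribavirin and 5, 3, 1 and 0 in Ribavirin-OVA.

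Csf3r in neutrophil-like cells under vehicle (0.03) turned to -0.069 with the mean of single-cell CPM. It gave 0.21 with at least 2000 UMIs per cell, 0.50 with median-of-ratios size factors, 0.086 at resolution 2.0, 0.18 with each library clustered alone, 0.064 with members among the variable genes, 0.41 with classes from single-cell marker UMIs, 0.35 with the Siglecf-led cluster and 0.51 without the clusters from 1 library. Under ribavirin (0.43) it gave 0.38 at a mitochondrial limit of 5%, 0.32 with at least 2000 UMIs, 0.50 with doublets kept, 0.49 with no filter on cells, 0.53 with mean CPM, 0.015 with size factors, 0.36 at resolution 0.5, 0.73 with marker UMIs, 0.63 with the Siglecf-led cluster and 0.40 without the clusters from 1 library.

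Csf1r in macrophage-like cells under vehicle (-0.64) gave, at the mitochondrial limit, with 2000 UMIs, with doublets kept and with no filter, -0.57, -0.43, -0.60 and -0.35. With mean CPM and size factors it gave -0.92 and -0.76, at resolutions 0.5 and 2.0 -0.25 and -0.52, and with members allowed, marker UMIs and the Ly6i-led cluster -0.43, -0.20 and -0.26. Under ribavirin (-0.24) it turned to 0.0015 at resolution 0.5. In the order above it otherwise gave -0.29, -0.12, -0.20, -0.042, -0.57 and -0.45, then -0.16 at resolution 2.0, -0.29 with each library alone, and -0.15, -0.13 and -0.025.

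Csf1 over all cells under vehicle (1.83) gave 1.99 at the mitochondrial limit, 2.00 with 2000 UMIs, 1.72 with no filter and 1.52 with mean CPM, and under ribavirin (0.69) 0.98, 0.64, 0.64 and 0.94, and 0.29 with size factors. Csf2 under vehicle (-0.74) gave -2.67 with mean CPM and -1.20 without the cell with the most Csf2 UMIs in each library, and under ribavirin (-0.91) -1.35 at the mitochondrial limit and -1.31 with size factors. The share of Csf3-positive neutrophil-like cells with Csf3r was 100% in Vehicle with doublets kept, 86.3% in Vehicle-OVA and 78.6% in Ribavirin at 2000 UMIs, and 91.2% and 89.1% unthinned. List genes over 2-fold in neutrophil-like cells under ribavirin numbered 4 in place of 8 at a minimum of 200 UMIs.

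No paired analysis was possible because the labels carry no replicate numbers and each group is 1 library. Depth limits Csf2 and Il34 most, with 72 to 430 and 86 to 128 UMIs per library.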
